A study of Mus musculus with 6 samples.

Results

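Broad H3K4me3 promoter regions were taken from the region list of H3K4me3 replicate 1 as those in the authors' promoter-TSS class whose end minus start was at least 1000 bp. They numbered 527 of the 3559 promoter regions (14.8%) and of the 8129 regions of that list, and the 4 lists of the series together hold 10543 features. The other 3032 promoter regions of the same list, 500 to 998 bp wide, served as the comparison. The members were chosen by their width in replicate 1, so their widths, scores and positions in that list are given as a description with no test.

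All libraries came from oocytes of female C57BL/6 embryos at E16.5 (embryonic day), labelled Taf4b-wildtype and carrying an Oct4-EGFP transgene for which the mated mice were homozygous. CUT&RUN, in which an antibody directs a nuclease to its target and the released DNA is sequenced, was done with 2 libraries each for H3K4me3, TAF4b and IgG. Oocyte identity rests on the sort: live cells from dissociated gonads were sorted on GFP against the baseline of a non-transgenic gonad. The labels do not give the number of embryos per library or say whether replicates came from separate animals, and the lists carry no gene names, so germ cell markers could not be examined.

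H3K4me3, trimethylation of lysine 4 on histone H3, is placed around the start sites of transcribed genes and is read by the TAF3 subunit of TFIID, the general factor that seats RNA polymerase II on promoters. TAF4b is a TFIID subunit related to TAF4 that is enriched in gonads, and mice lacking it lose oocytes early. Growing oocytes are known for H3K4me3 domains that spread far past promoters later in development. The regions described here are of promoter scale, the widest being 3832 bp.

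The H3K4me3 libraries gave lists of very unequal length, with 8129 regions in replicate 1 and 320 in replicate 2. The TAF4b lists held 983 and 1111 peaks, each 90 bp wide in replicate 1 and 134 bp wide in replicate 2. Read totals are not in the lists, so depth is unknown, and IgG was not analysed here. Regions are not replicates of a condition. All intervals below are 95% intervals that cover counting error only and compare lists, not animals.

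The broad regions were longer on both sides of the transcription start site (TSS) and slightly denser in score than the rest pooled. Their median width was 1271 bp, with quartiles of 1117 and 1488 bp, and 251 of them (47.6%) were under 1250 bp, while 126 reached 1500 bp and 22 reached 2000 bp. Among other promoter regions the median was 500 bp, since 1568 of all 3559 promoter regions (44.1%) had exactly that width, the list's smallest. The next width was 625 bp, so widths were not continuous near the lower end. Broad regions made up 27.6% of the length of all promoter regions and 28.0% of their summed score.

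Score is the authors' peak score, whose scaling is not stated. Broad regions had a median score of 99.8 (quartiles 83.5 and 123), against 44.1 (34.8 and 58.0) for other promoter regions. The lowest broad score was 60.3, and 55 broad regions (10.4%) scored above the highest other region, at 144. Divided by width, the gap nearly closed: the median was 77.5 score units per kb (quartiles 67.4 and 89.3) in broad regions and 74.2 (65.0 and 84.9) in the others. Among the 527 broad regions, width went with score (Spearman rho 0.604) and slightly against score per kb (rho -0.165). These are descriptions across regions of 1 library, and whether a wider region sums more signal was not tested. Among the other regions width went slightly with score per kb (rho 0.202), and 57.9% of broad against 45.2% of other regions lay above the median score per kb of all promoter regions. Against all other regions pooled, broad regions were thus longer stretches of slightly higher score density. This was not particular to them, since other regions of 750 to 999 bp had a median of 80.2 score units per kb. Within broad regions the median was 79.3 from 1000 to 1249 bp and 77.3 from 1250 to 1499 bp. It was 72.7 from 1500 to 1999 bp and 69.4 from 2000 bp.

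**Figure D1:**
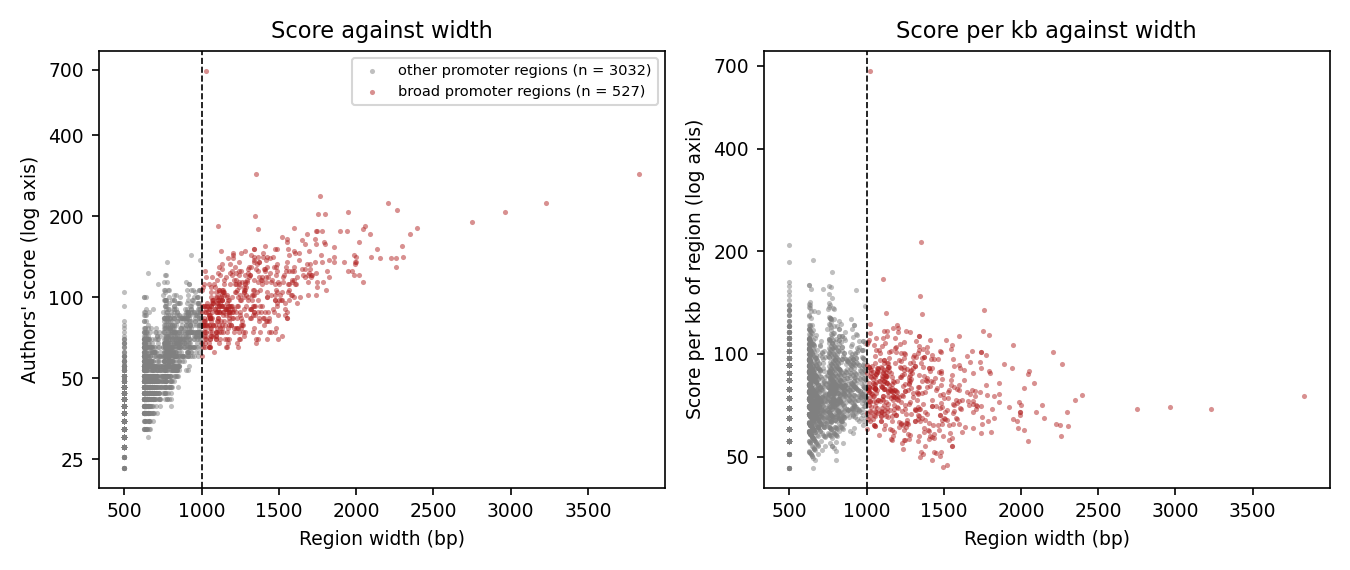
Authors' score (left) and score per kb of region (right), both on log axes, against region width for every promoter region of H3K4me3 replicate 1; the dashed line marks 1000 bp, and red points are the 527 broad regions. Score climbs with width, while score per kb stays near the same level on both sides of the line, with medians of 77.5 and 74.2 score units per kb. The isolated point at the top is the region on an unplaced contig, with a score of 693.7.

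The widths just inside the limit were 1000, 1000 and 1001 bp, with scores of 88.2, 67.3 and 106.7, and those just outside were 998, 997 and 997 bp, with scores of 83.5, 71.9 and 65.0. The limit therefore cuts through a continuous range of widths and scores.

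Both groups were centred near the TSS, which the choice of the promoter-TSS class favours. The distance from region centre to the nearest TSS, negative when upstream, had a median of -7 bp in broad regions (quartiles -106 and 66.5 bp) and -10 bp in the others (-122 and 52 bp). A centre lay within 100 bp of the TSS in 311 broad regions and in 1788 others, which was 59.0% of each group. The nearest TSS fell inside the region for 517 broad regions (98.1%) and 2587 others (85.3%), a difference that greater width favours by construction. In gene direction, broad regions reached a median of 662 bp upstream of the TSS and 630 bp downstream, against 328 and 280 bp for the others. The position 500 bp downstream was covered by 76.5% of broad and 8.48% of other regions, and the position 500 bp upstream by 86.1% and 17.7%. Within this class the extra length lay on both sides of the TSS, with 280 of the 527 (53.1%) centred upstream. Of 96 regions of at least 1000 bp in the authors' exon class, 78 covered a TSS and 95 were centred downstream of it.

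Broad regions were found on every chromosome listed. Their share of the promoter regions ran from 9.77% on chromosome 19 (13 of 133) to 20.3% on chromosome 12 (30 of 148), with overlapping intervals of 5.31 to 16.1% and 14.1 to 27.7%. On the X chromosome, of interest in female germ cells, it was 16 of 91 (17.6%, 10.4 to 27.0%). Spacing gave overlapping intervals: another replicate 1 region lay within 5 kb of 32 broad regions (6.07%, 4.19 to 8.46%) and of 210 others (6.93%, 6.05 to 7.89%), with median gaps of 41755 bp (37105 to 50024) and 45599 bp (43094 to 48967).

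The widest region, chr1:86452540-86456372 (GRCm39), spanned 3832 bp with a score of 287.7 and was centred at -2 bp from the TSS of ENSMUST00000186255. It held 1 TAF4b peak in replicate 1, with a score of 10.4 at -113 bp, and none in replicate 2. The region at chr5:23637336-23640563 followed, with 3227 bp and a score of 222.7, and likewise held a single TAF4b peak of replicate 1, with a score of 10.8 at -62 bp. Regions at chr11:70544403-70547366 (2963 bp), chr1:177084612-177087364 (2752 bp) and chr5:31044735-31047127 (2392 bp) completed the 5 widest and held no TAF4b peak of either list. None of the 5 overlapped a region of H3K4me3 replicate 2, although their scores of 181.0 to 287.7 were above 146, the 90th percentile of broad scores. Their score per kb, 69.0 to 75.7, was below the broad median.

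The 5 densest regions were 1025 to 1763 bp wide, and none was among the 5 widest. The highest score per kb, 677, belonged to a 1025 bp region on an unplaced contig at positions 59308 to 60333, which had no TAF4b peak and a replicate 2 region with a score of 1148.6. Without this region the TAF4b difference reported further on was 8.41 in place of 8.36 percentage points, and the replicate 2 difference 6.15 in place of 6.32. On placed chromosomes chr8:48127820-48129170 stood highest, with 1350 bp, a score of 287.7 and 213 score units per kb. It overlapped a replicate 2 region with a score of 156.0 and a TAF4b replicate 2 peak with a score of 28.4 at -57 bp. Next came chr6:50543052-50544158 (166 per kb) and chr1:93405834-93407181 (148 per kb), both with a replicate 2 region and TAF4b. The fifth, chr9:56982967-56984730 (134 per kb), had TAF4b in both lists but no replicate 2 region. Of these 5 dense regions, 4 were in H3K4me3 replicate 2, against 0 of the 5 widest and 11.2% of all broad regions. With broad regions ranked by width, the share was 11.4% in the narrowest of 4 groups and 12.1% in the widest. Ranked by score per kb, it was 4.55% in the least dense group and 22.7% in the densest.

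The question of whether the broad regions recur in a library not used to choose them was addressed with H3K4me3 replicate 2. Counted in a fixed window of 500 bp at the region centre, so that wide regions had no extra room, 54 of 527 broad regions overlapped a replicate 2 region (10.2%, exact Clopper-Pearson interval 7.79 to 13.2%). Among other promoter regions 119 of 3032 did (3.92%, 3.26 to 4.68%), and over all promoter regions 4.86%. The difference was 6.32 percentage points (Newcombe interval 3.89 to 9.27). Over the whole region the counts were 59 (11.2%) and 119 (3.92%), with 5.00% over all promoter regions. Broad regions were thus found again 2.61 times as often in the window, yet 473 of the 527 had no region of the short list in the window, which at unknown depth does not show that the mark was absent.

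Recurrence followed score density as well as width. When all promoter regions were divided into 4 groups at the quartiles of score per kb, the share found in replicate 2 was 21.8% of 165 broad and 8.00% of 725 other regions in the densest group, a difference of 13.8 points (7.78 to 20.9). In the other 3 groups it was 2.88 to 6.78% for broad and 1.54 to 4.19% for other regions, and the interval of the difference lay above 0 in 1 of the 3. Against only those 683 other regions that scored at least 60.3, the lowest broad score, the window difference was 2.78 points with an interval of -0.421 to 6.15, no longer clear of 0. Against other regions of 750 bp and over it was 3.62 points (0.446 to 6.95).

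Replicate 2 regions exceeded the minimum width more often at broad regions than at all other promoter regions pooled, counted over whole regions. This was not compared with only those other regions of 750 bp and over or scoring at least 60.3. Replicate 2 regions at broad regions were wider than the 500 bp minimum in 12 of 59 cases (20.3%, 11.0 to 32.8%), and those at other promoter regions in 11 of 119 (9.24%, 4.71 to 15.9%), a difference of 11.1 points (0.518 to 23.7). The median width was 500 bp in both. Replicate 2 held 3 promoter regions of at least 1000 bp, and all 3 overlapped broad regions of replicate 1. The first was the contig region, where replicate 2 had 1392 bp, and it is among the 12 counted above. The difference of 11.1 points was not computed without it, so whether its lower limit of 0.518 would stay above 0 is not known. The second, chr11:72686155-72687837, was 1682 bp wide in replicate 1 and 1424 bp in replicate 2, with scores of 132.2 and 177.3, and had no TAF4b peak. The third, chr1:131453842-131455790, was 1948 bp wide in replicate 1 and 1113 bp in replicate 2, with scores of 206.5 and 177.3, and held TAF4b peaks of both lists. Among replicate 2 regions at broad regions, the next highest score on a placed chromosome, 156.0, was shared by the chr8 region above and by chr3:94922326-94923688, where replicate 2 was 904 bp wide. Median replicate 2 scores, 92.2 (85.1 to 99.3) at broad and 85.1 (85.1 to 99.3) at other regions, were not distinguishable.

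TAF4b was found more often at broad regions than at all other promoter regions pooled. In the 500 bp centre window, 86 of 527 broad regions held a TAF4b peak of replicate 1 (16.3%, 13.3 to 19.8%), against 304 of 3032 others (10.0%, 8.98 to 11.2%) and 11.0% of all promoter regions. For TAF4b replicate 2 the counts were 109 (20.7%, 17.3 to 24.4%) and 403 (13.3%, 12.1 to 14.6%), with 14.4% of all promoter regions. The differences of 6.29 points (3.17 to 9.84) and 7.39 points (3.92 to 11.2) had the same direction in both libraries. A peak of either list was present in 140 broad (26.6%) and 552 other regions (18.2%), against 19.4% of all promoter regions, a difference of 8.36 points (4.50 to 12.5). Peaks of both lists were present in 55 (10.4%) and 155 (5.11%), against 5.90% of all promoter regions.

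The excess was not particular to regions of 1000 bp or more. The 649 other regions of 750 bp and over held a TAF4b peak of either list in the window in 26.5% of cases, and broad regions exceeded them by 0.0632 points (-4.97 to 5.16), a comparison chosen after the values were seen. The 683 other regions with a score of at least 60.3 held one in 29.1%, which reversed the direction to -2.57 points (-7.60 to 2.55) with an interval that spans 0. Those 683 regions were narrower, with a median of 800 bp, and denser, with 91.8 score units per kb against 77.5 in broad regions. Their median score was still lower, 69.6 against 99.8, since the limit sets a floor and does not match scores. Within the 4 groups of score per kb broad regions were higher by 9.82 (2.52 to 18.9), 2.85 (-3.56 to 11.1), 8.67 (1.02 to 17.2) and 6.71 points (-0.808 to 14.8), from the least to the most dense. The average was 6.98 points, and the interval lay above 0 in 2 of the 4 groups. Width and score of the mark moved together in these regions, and their separate parts in the TAF4b difference cannot be told apart from this list.

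By width class the window share of each TAF4b list was higher in each class up to 1499 bp and lower beyond it. From 750 bp on, the intervals of neighbouring classes overlapped. A peak of either list was in 26.5% from 750 to 999 bp, 28.7% from 1000 to 1249 bp and 28.0% from 1250 to 1499 bp. For TAF4b replicate 1 the window share was 7.72% in regions of 500 bp, 10.3% from 501 to 749 bp and 15.3% from 750 to 999 bp. It was 17.1% from 1000 to 1249 bp and 17.3% from 1250 to 1499 bp. From 1500 to 1999 bp it was 13.5% (7.56 to 21.6%, 104 regions). Replicate 2 gave 9.95%, 14.4%, 20.0%, 21.9%, 23.3% and 15.4% over the same classes, the last with an interval of 9.06 to 23.8%. In the 22 regions from 2000 bp each list gave 13.6% (2.91 to 34.9%). The 126 broad regions of at least 1500 bp exceeded all narrower ones by 1.23 points only (-5.06 to 9.22) for either list. Fewer of these widest regions were centred near a TSS: 54.8% within 100 bp from 1500 to 1999 bp and 40.9% of the 22 from 2000 bp, against 63.7% from 1000 to 1249 bp. From 1250 to 1499 bp, the class with the highest window share in each TAF4b list on its own, it was 56.7%, close to that of the next class. The part of this shift in the lower share was not tested. Among regions of both groups centred within 100 bp of a TSS, an alternative added later, the share was 31.8% for broad and 20.3% for other regions, a difference of 11.5 points (6.24 to 17.2).

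**Figure D2:**
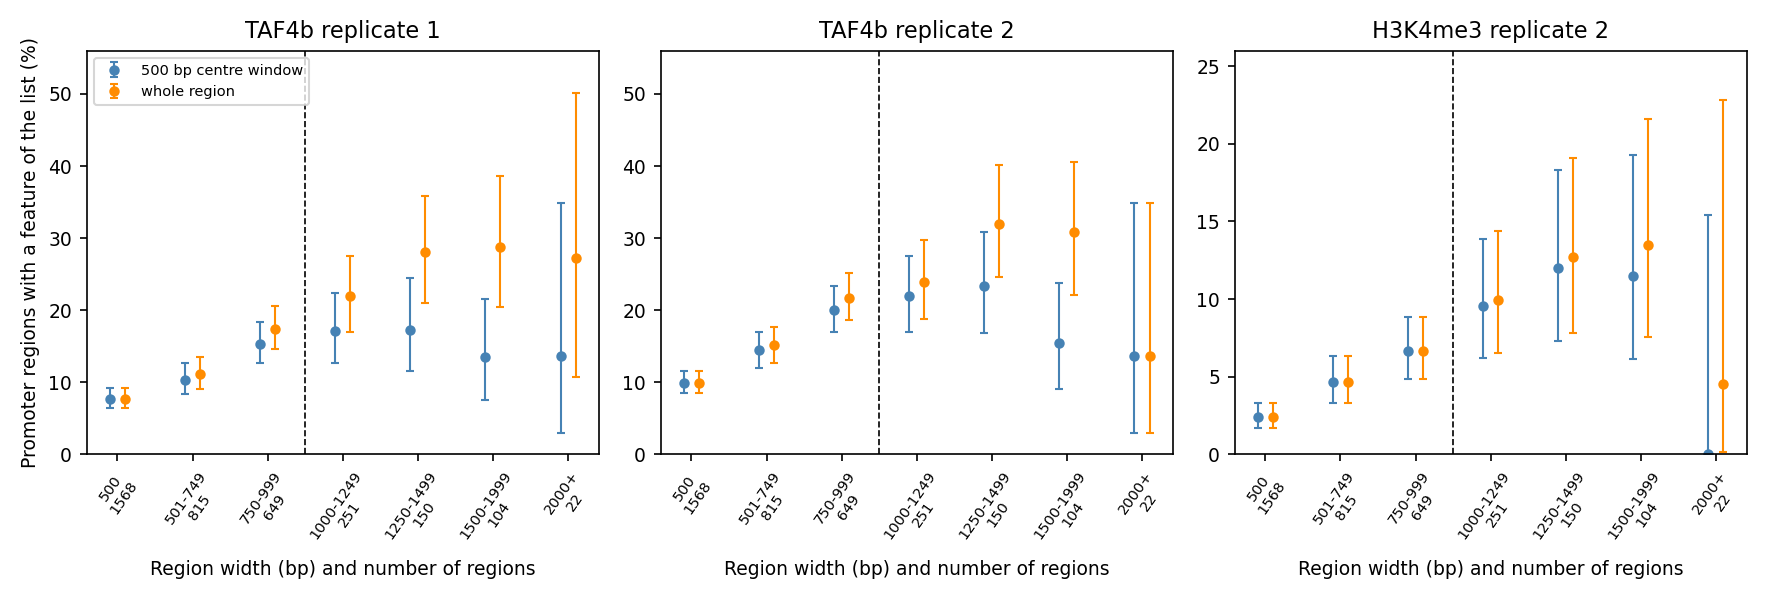
Share of promoter regions of H3K4me3 replicate 1 that hold a feature of each other list, by region width with the number of regions under each class, counted in the 500 bp centre window (blue) or the whole region (orange); bars are exact 95% intervals and the dashed line marks 1000 bp. The blue TAF4b shares climb from 7.72% and 9.95% at 500 bp to 17.3% and 23.3% from 1250 to 1499 bp, and the orange TAF4b shares lie above the blue from 1000 to 1999 bp.

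Counted over the whole region, which gives wide regions more room, the shares were higher. A TAF4b peak of replicate 1 lay in 133 broad regions (25.2%) and 325 others (10.7%), with 12.9% of all promoter regions, and a peak of replicate 2 in 143 (27.1%) and 420 (13.9%), with 15.8%. A peak of either list lay in 191 broad regions (36.2%, 32.1 to 40.5%) and 575 others (19.0%, 17.6 to 20.4%), with 21.5% of all promoter regions, and the difference of 17.3 points (13.0 to 21.7) was larger than in the window. Peaks of both lists lay in 85 (16.1%) and 170 (5.61%), with 7.16% of all promoter regions. Per covered length the groups were close: peak centres numbered 19.8 and 21.0 per 100 kb of broad region in the TAF4b lists, against 16.9 and 21.7 per 100 kb of other regions.

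**Figure D3:**
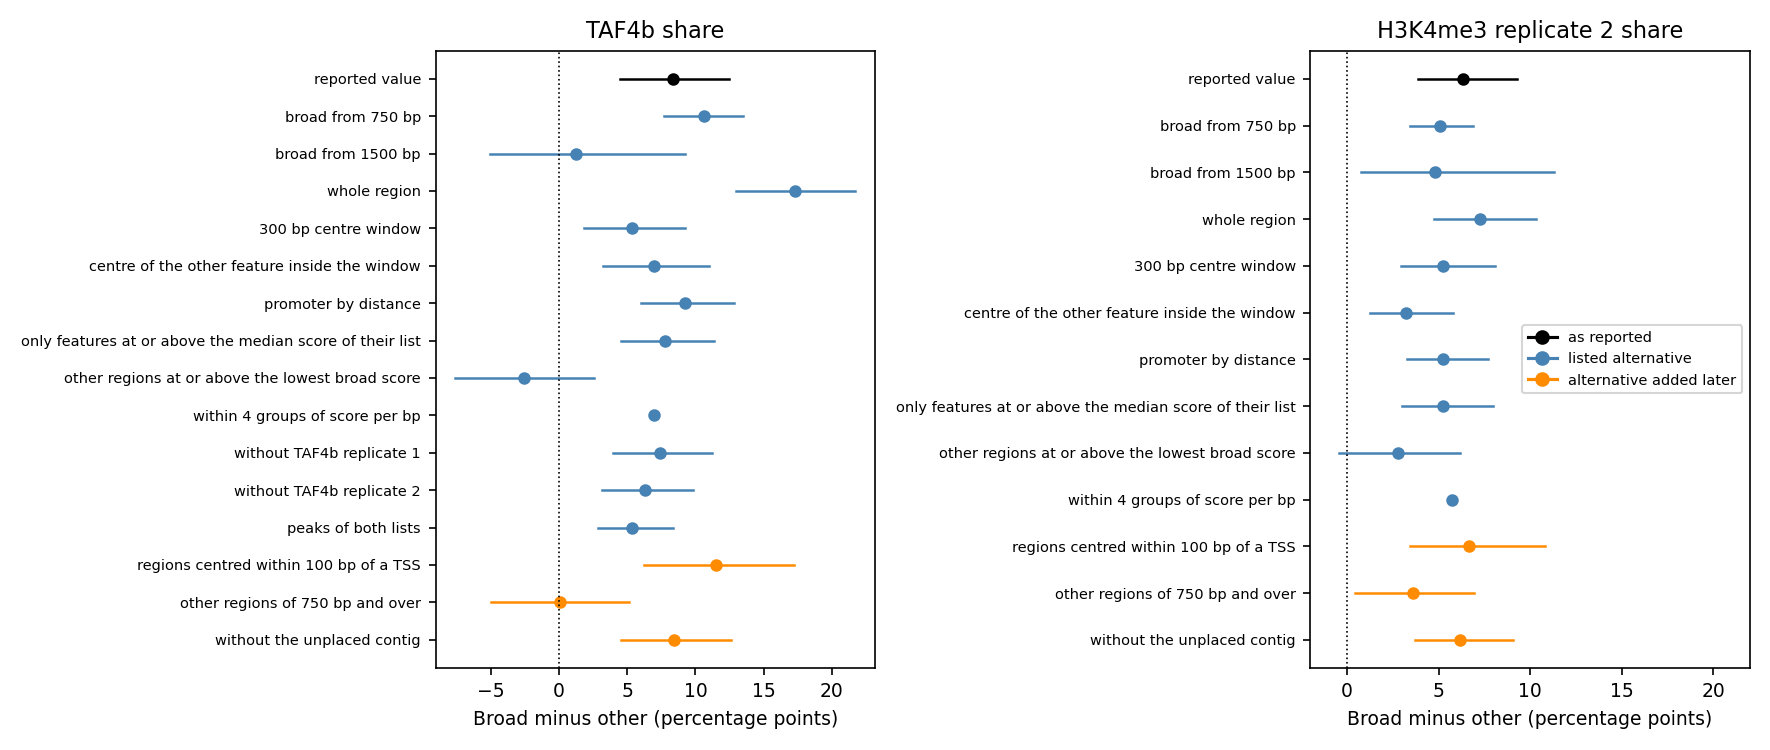
Broad minus other promoter regions, in percentage points, for the share with TAF4b of either list (left) and the share found in H3K4me3 replicate 2 (right), under each setting; points are differences, lines are Newcombe 95% intervals (not computed for the average within 4 groups), and the dotted line is 0. The TAF4b difference runs from -2.57 points against other regions scoring at least the lowest broad score to 17.3 points over whole regions.

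TAF4b lay near the middle of broad regions and thinned toward their edges, as it did in other promoter regions. In the central 500 bp, centres numbered 29.6 per 100 kb for TAF4b replicate 1 (78 peaks) and 36.1 for replicate 2 (95 peaks), against 14.0 (63 peaks) and 12.2 (55 peaks) in the flanks. Other regions had 18.8 and 23.9 per 100 kb in their windows and 8.60 and 12.0 in their flanks. Their windows include 1568 regions of exactly 500 bp, which have no flank, so these values cover different sets of regions. Within broad regions the median distance between TAF4b peak and region centre was 204 bp (171 to 269) for replicate 1 and 189 bp (168 to 230) for replicate 2. The farthest peaks lay 769 and 753 bp away. The central 50% of the region length held 97 of 142 peaks (68.3%, 60.0 to 75.9%) and 117 of 150 (78.0%, 70.5 to 84.3%). In other regions it held 63.5% (58.1 to 68.7%) and 64.1% (59.3 to 68.6%).

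Measured from the nearest TSS of each peak, TAF4b lay at like positions in broad and other regions, with overlapping intervals. Over whole regions, peaks of replicate 1 had a median position of -58 bp in broad regions (-71 to -38, 142 peaks) and -58 bp in the others (-71 to -46, 329 peaks). For replicate 2 the medians were -59 bp (-75 to -48, 150 peaks) and -63 bp (-73 to -52, 423 peaks). Upstream of the TSS were 79.6% of the peaks in both groups for replicate 1, a difference of -0.0578 points (-8.44 to 7.40), and 85.3% and 84.2% for replicate 2, a difference of 1.17 points (-6.10 to 7.27). Within 100 bp of the TSS were 94 of the 142 peaks (66.2%) and 103 of the 150 (68.7%). More than 250 bp from their own nearest TSS were 12 of 142 and 7 of 150 TAF4b peaks (8.45% and 4.67%). The mark reached a median of over 600 bp to each side of the TSS nearest the region centre. Peak and region had the same nearest transcript for 50 of 142 and 53 of 150 peaks, so these distances often start from different transcripts. The window gave medians of -43.5 and -54.5 bp in broad regions and -58.0 and -64.5 bp in the others, with overlapping intervals.

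**Figure D4:**
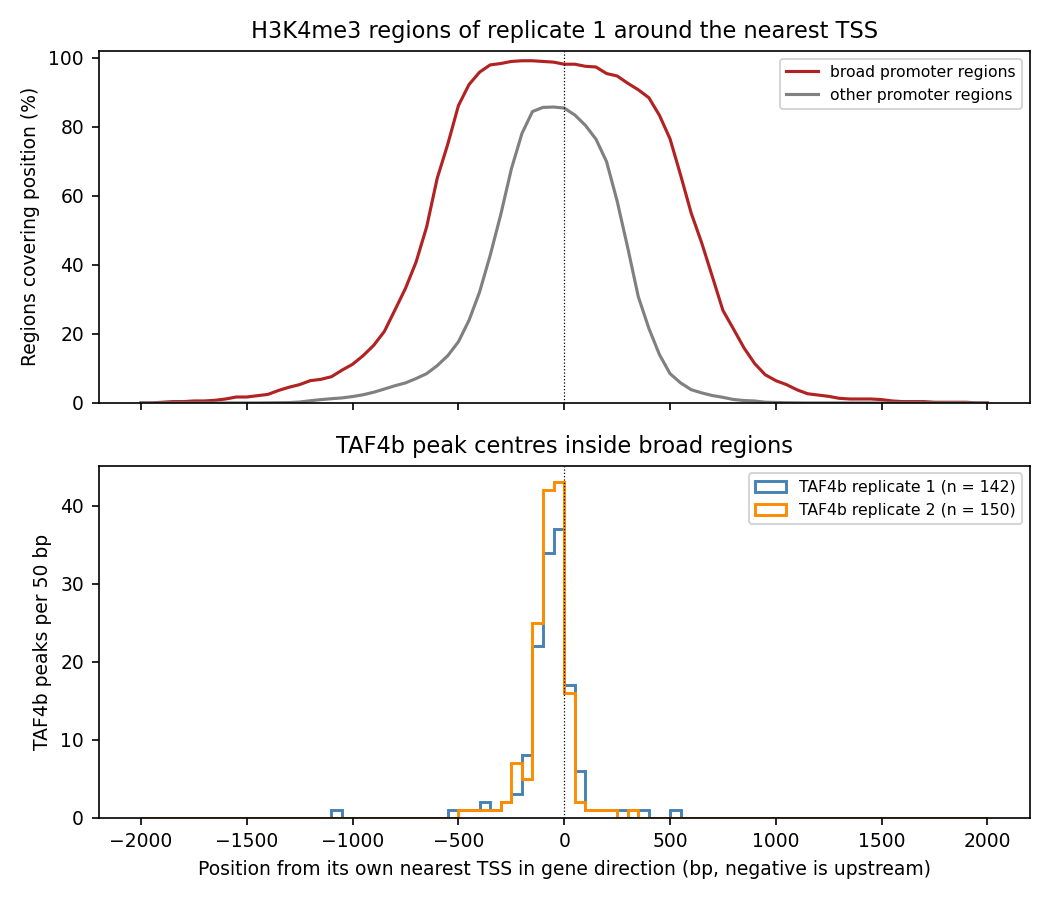
Top, percentage of broad and other H3K4me3 promoter regions that cover each position around the nearest TSS, in gene direction; bottom, TAF4b peaks inside broad regions per 50 bp of distance from the nearest TSS of each peak, for both lists. The position 500 bp upstream is covered by 86.1% of broad regions and that 500 bp downstream by 76.5%. TAF4b peaks crowd just upstream of their own nearest TSS, with medians of -58 and -59 bp.

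Peaks in broad regions were less often assigned to the same transcript as their region. The transcript whose TSS was nearest differed from the transcript in the authors' annotation for 351 of 527 broad regions (66.6%, 62.4 to 70.6%) and 1854 of 3032 others (61.1%, 59.4 to 62.9%). The nearest transcript of a TAF4b peak was the same as that of its region for 50 of 142 peaks (35.2%) in broad and 167 of 329 (50.8%) in other regions in replicate 1, a difference of -15.5 points (-24.7 to -5.78). In replicate 2 it was 53 of 150 (35.3%) and 234 of 423 (55.3%), a difference of -20.0 points (-28.6 to -10.7). Transcripts of 1 gene can share or nearly share a TSS, so a different transcript is not always a different promoter, and a longer region has its centre farther from the peak.

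Counted over whole regions, broad regions with 2 TAF4b peaks of the same list were few but more frequent than elsewhere. Replicate 1 gave 9 such regions among the 133 with a peak (6.77%), against 4 of 325 other regions (1.23%), a difference of 5.54 points (1.85 to 11.2). Replicate 2 gave 7 of 143 (4.90%) and 3 of 420 (0.714%), a difference of 4.18 points (1.33 to 9.07). No region held more than 2. A wider region has more room for 2 peaks. In the 500 bp window such regions were 2 of the 86 broad and 1 of the 304 other regions with a replicate 1 peak. For replicate 2 they were 1 of 109 and 1 of 403. Over whole broad regions, the paired peaks were 228 to 1027 bp apart in replicate 1 (median 515 bp) and 342 to 655 bp in replicate 2 (median 436 bp). They had different nearest transcripts in 8 of 9 and 6 of 7 regions. The region at chr11:106679189-106680649 was the single one with 2 peaks in both lists, 329 bp apart in replicate 1 and 342 bp in replicate 2. The widest spacing, 1027 bp, was at chr9:56982967-56984730. These 2 regions were singled out after their values were seen.

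The TAF4b lists matched each other more often in broad regions than in all other promoter regions pooled. Of the 133 broad regions with a replicate 1 peak, 85 also had a replicate 2 peak (63.9%), against 170 of 325 other regions (52.3%), a difference of 11.6 points (1.59 to 21.0). Seen from replicate 2, the shares were 85 of 143 (59.4%) and 170 of 420 (40.5%), a difference of 19.0 points (9.49 to 27.9). In the 500 bp window they differed by 13.0 points (1.04 to 23.9) and 12.0 points (1.57 to 22.3). The window counts were 55 of 86 and 55 of 109 in broad regions, and 210 of 390 and 210 of 512 in all promoter regions. Other regions of 750 bp and over gave 57 of 99 and 57 of 130. Those scoring at least 60.3 gave 66 of 114 and 66 of 151. Intervals against these last 2 sets were not computed. In broad regions with both lists, the nearest peaks of the lists were a median of 42 bp apart (26 to 53), and 71 of 85 (83.5%) were within 100 bp. Other regions gave 31 bp (22 to 38) and 151 of 170 (88.8%).

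TAF4b peak scores differed little between the groups. In the window, replicate 1 peaks had a median score of 8.47 in broad regions (7.70 to 9.62, 88 peaks) and 8.08 in others (7.70 to 8.47, 305 peaks). Replicate 2 peaks had 19.8 (18.3 to 22.3, 110 peaks) and 18.3 (18.3 to 19.3, 404 peaks). The intervals overlapped in both lists. The lists are on different scales, and each was compared within itself.

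**Figure D5:**
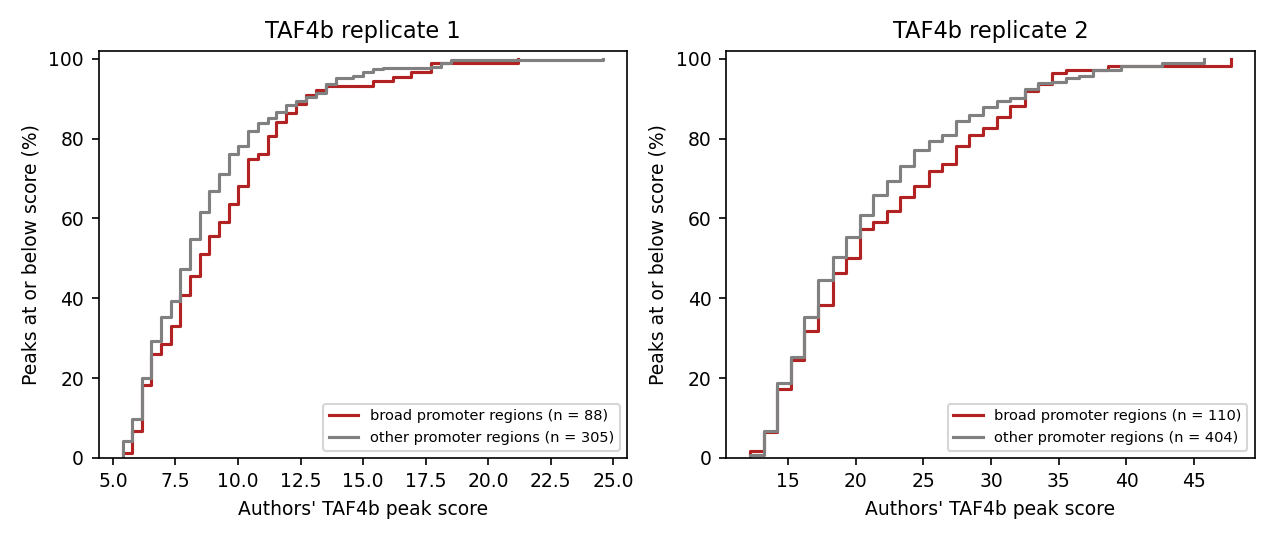
Cumulative share of TAF4b peaks by authors' score for peaks in the 500 bp centre window of broad (red) and other (grey) promoter regions, for each TAF4b list. The red curves run slightly to the right of the grey over the middle of the range, with medians of 8.47 against 8.08 and of 19.8 against 18.3, and the curves meet at high scores.

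The strongest TAF4b signal in broad regions, ranked by score percentile summed over both lists, was at chr14:67952930-67954306. This 1376 bp region held a replicate 1 peak with a score of 21.2 at -6 bp and a replicate 2 peak with a score of 47.7 at -20 bp, percentiles of 99.5 and 99.4 in their lists. Its H3K4me3 score was 92.8 in replicate 1, and it overlapped a replicate 2 region with a score of 70.9. At chr3:95836392-95837709 (1317 bp) the peaks scored 16.2 at -44 bp and 40.6 at -67 bp, again with H3K4me3 in both libraries. At chr17:85264967-85266365 (1398 bp) they scored 20.8 and 36.5, at 28 and 2 bp downstream. Peaks at chr16:64671136-64672411 (1275 bp) scored 14.6 and 43.6. At chr1:86286591-86288001 (1410 bp), whose centre coincided with the TSS of ENSMUST00000127284, the replicate 1 peak scored 21.2 at -24 bp and the higher of 2 replicate 2 peaks scored 32.5 at -85 bp. Of these 5, the first 4 had H3K4me3 scores per kb of 59.7 to 81.9 and the fifth 88.9, on both sides of the broad median of 77.5. Over all broad regions, the window share with TAF4b of either list was 20.5%, 26.5%, 28.2% and 31.1% from the least to the most dense of 4 groups by score per kb, with overlapping intervals of 13.9 to 28.3% and 23.3 to 39.7% in the first and last.

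Most broad regions had no called TAF4b peak: 336 of 527 (63.8%, 59.5 to 67.9%) lacked one of either list over their whole length. The widest of these were the 3 without TAF4b named above, followed by chr7:44497668-44500019 (2351 bp, score 171.7, centred at 75 bp downstream of the TSS) and chr9:44791739-44794044 (2305 bp, score 141.5, centred at -135 bp). None of the 5 was found in H3K4me3 replicate 2. At unknown depth, absence from a list does not show absence of TAF4b. Broad regions present in H3K4me3 replicate 2 held TAF4b of either list in 34 of 59 cases (57.6%, 44.1 to 70.4%), and those absent from it in 157 of 468 (33.5%, 29.3 to 38.0%). The corresponding shares for other regions were 37.0% and 18.2%.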

How the data were processed

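The authors deposited 1 annotated list per TAF4b and H3K4me3 library, with HOMER's column names per the file headers. HOMER 4.10, SAMtools 1.9 and Bowtie2 2.3.0 are listed in the submitters' processing notes beside FastQC 0.11.5, Trim Galore 0.5.0 and bcl2fastq 2.20, with GRCm39 as the build; settings are not given in the sources used here. Each deposited list has a peak score of unstated scaling, so scores were compared within a list. The deposited focus ratio, a fraction from 0 to 1, was not used. The signed TSS distance was measured from the centre: for pairs of features with the same nearest transcript (234, 304 and 98 in the 3 other lists), centre and TSS distances agreed within 1 bp in all.

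Features overlapped when they shared at least 1 bp. Shares have exact (Clopper-Pearson) intervals, differences have Newcombe intervals, and medians have exact order-statistic intervals. With 2 libraries per target no test over samples was made. Named regions are the 5 widest, the 5 densest, the 5 with the highest TAF4b percentiles, the 5 highest in H3K4me3 replicate 2, the 5 widest without TAF4b and 3 on each side of 1000 bp. Members and rules were chosen with earlier results of these data known. A RefSeq table of another build matched 0 of 878 transcripts, so no gene is named and the gene lists were not used. Overlap counts and intervals were tested on simulated data. Python 3.11.15, pandas 2.3.3, NumPy 2.4.6, SciPy 1.17.1 and matplotlib 3.10.9 were used.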

Additional observations from a re-analysis of the deposited data

How the results depend on the processing

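Of 43 alternatives to 8 results, 34 stayed within the interval of the reported value, 8 moved outside it and 1 reversed. Of the 43, 6 were chosen after seeing the data. Reversal was counted only for the 2 share differences. For medians only the broad value was compared with its interval, so a changed order of broad and other regions was not counted. The median TAF4b replicate 2 position was -54.5 bp in broad and -64.5 bp in other regions, but -63.0 and -60.5 bp for broad from 750 bp. For the TAF4b share, reported as 8.36 points, other regions scoring at least the lowest broad score gave -2.57 and other regions of 750 bp and over 0.0632. Broad from 1500 bp gave 1.23 and whole regions 17.3. Wide regions have more room in the last setting, and the part of room in the rise was not tested. Leaving out TAF4b replicates 1 and 2 in turn gave 7.39 and 6.29. For the H3K4me3 replicate 2 share, reported as 6.32 points, other regions scoring at least the lowest broad score gave 2.78. Those of 750 bp and over gave 3.62, and requiring the replicate 2 centre inside the window 3.24. For broad from 1500 bp, the median TAF4b replicate 1 score was 10.0 (17 peaks). The median replicate 2 position was -84 bp (19 peaks), against -61.0 bp in all narrower regions. The cause of the changes was not tested. No paired analysis was possible because the members come from 1 H3K4me3 list and no result comes from a test over samples. Since read totals are unknown, a region missing from a list may hold the mark or factor below the calling threshold.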

Other observations

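The replicate 1 list held 308 further regions of at least 1000 bp outside the promoter class. The exon class had 96 of them, 14.1% of its 682 regions, close to the 14.8% of the promoter class, whereas 6.53% of intron, 7.80% of transcription end and 2.53% of intergenic regions were that wide. Of the 96 exon regions, 78 covered a TSS, 84 were centred within 1 kb of one and 95 were centred downstream of it. Their median score per kb was 72.0. In the 500 bp centre window 14 of 96 held a TAF4b peak of either list (14.6%, 8.21 to 23.3%), and over the whole region 31 did (32.3%). The 160 wide intron regions had a TAF4b peak in 8 windows (5.00%, 2.18 to 9.61%), and 1 of the 29 intergenic regions had one.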
